A study of Homo sapiens with 4 samples.

Results

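Metallothioneins are small, cysteine-rich proteins, and 10 human genes of the family were followed in the lists of differentially expressed mRNAs of 2 liver cancer cell lines. The genes were MT1A, MT1B, MT1E, MT1F, MT1G, MT1H, MT1M, MT1X, MT2A and MT3, chosen by name and matched by Ensembl identifier. The GO background of the study counts 22148 genes without naming them, so whether each unlisted member is among them is not known. HepG2 and Huh7 are established human cell lines labelled as hepatocellular carcinoma (HCC). RNA-seq libraries were made from rRNA-depleted RNA, with 1 library for each of 4 groups. Groups A and B were HepG2 cells without and with treatment, and groups C and D were Huh7 cells without and with it. The treatment was sonodynamic therapy (SDT), in which low-frequency ultrasound activates a sensitizer, here with targeted nanobubbles that carried hematoporphyrin monomethyl ether (HMME) and lonidamine (LND). Nanobubbles, sensitizer, LND and ultrasound were applied together, so their parts cannot be told apart in these libraries. The time between treatment and RNA isolation is not given in the sources used here.

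Metallothioneins bind zinc and copper in normal cells and also trap toxic cadmium. In the liver they store zinc, buffer copper and scavenge reactive oxygen species. Their genes are switched on when free zinc activates the metal-responsive transcription factor MTF1, which binds metal response elements (MREs) in their promoters. MT1 and MT2 genes are active in many tissues, whereas MT3 is best known from the brain and MT4 from stratified squamous epithelia.

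For each cell line a table of Gene Ontology (GO) terms was used, group B vs. A for HepG2 and group D vs. C for Huh7. Each row of a table is a GO term with the differentially expressed genes under it. A gene was counted as listed when its identifier stood under any row. The tables state neither the level of a gene in a library nor the direction of its change, so a listed metallothionein may have risen or fallen. An unlisted one may not have passed the threshold or may not have been tested. The identity of the cells was not checked against hepatocyte markers, since that needs levels. In RNA from whole cultures, fewer cells that express a gene and less RNA per cell cannot be told apart. With 1 library in each group, no replicate error exists and no test was made. The intervals given are 95% Wilson intervals and cover counting error only.

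In HepG2 cells, 2 of the 10 metallothioneins were listed, MT1G (ENSG00000125144) and MT1X (ENSG00000187193). This was 20.0% of the family (5.67% to 51.0%), against 21.6% of all background genes. In Huh7 cells, 3 of the 10 were listed, MT1A (ENSG00000205362), MT1B (ENSG00000169688) and MT1G. This was 30.0% (10.8% to 60.3%), against 19.7% of all background genes. Both intervals contain the share of all genes, so at this size the family as a whole was not distinguishable from the background. MT1G was the only member listed in both cell lines, 1 of the 10, while 10.3% of all background genes were listed in both.

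The cell lines differed in 3 members. MT1X was listed in HepG2 cells alone, and MT1A and MT1B were listed in Huh7 cells alone. The other 6 members, MT1E, MT1F, MT1H, MT1M, MT2A and MT3, were listed in neither cell line. MT2A, commonly the most abundant metallothionein of human cells, and MT3, the brain form, were thus absent from both lists. Many genes outside the family were split in the same way. Of 22148 background genes, 4783 were on the HepG2 list and 4369 on the Huh7 list, but only 2281 on both. Most background genes were on neither list. The split of the members by itself therefore shows no difference that is specific to the family. Whether MT1X, MT1A or MT1B responded differently in the cell lines was not tested. A gene that misses the threshold in a cell line may still have moved there.

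MT4 (ENSG00000102891), the epithelial metallothionein, is not among the 10 members but was listed in both cell lines. MT1HL1 (ENSG00000244020), a related gene outside the cluster, was listed in neither. With these genes added, 3 of 12 family genes were listed for HepG2 and 4 of 12 for Huh7, and MT1G and MT4 were the 2 listed in both. The shares of all background genes beside these counts are 21.6%, 19.7% and 10.3%.

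The 10 members lie in a cluster on chromosome 16 together with MT4. In the order of the reference annotation, the coding genes of the cluster are MT4, MT3, MT2A, MT1E, MT1M, MT1A, MT1B, MT1F, MT1G, MT1H and MT1X. All are on the same strand except MT1G, which is read from the opposite strand. MT1A and MT1B, the members listed in Huh7 cells alone, are neighbours. MT3, MT2A, MT1E and MT1M, listed in neither cell line, stand in a row between MT4 and MT1A. MT1F separated MT1B from MT1G, and MT1H separated MT1G from MT1X. Of the 3 nearest coding genes on the MT4 side (NUDT21, OGFOD1 and BBS2), 0 were listed in either cell line. On the MT1X side, NUP93 was listed in neither, SLC12A3 was listed in Huh7 cells alone and HERPUD1 was listed in both.

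**Figure D1:**
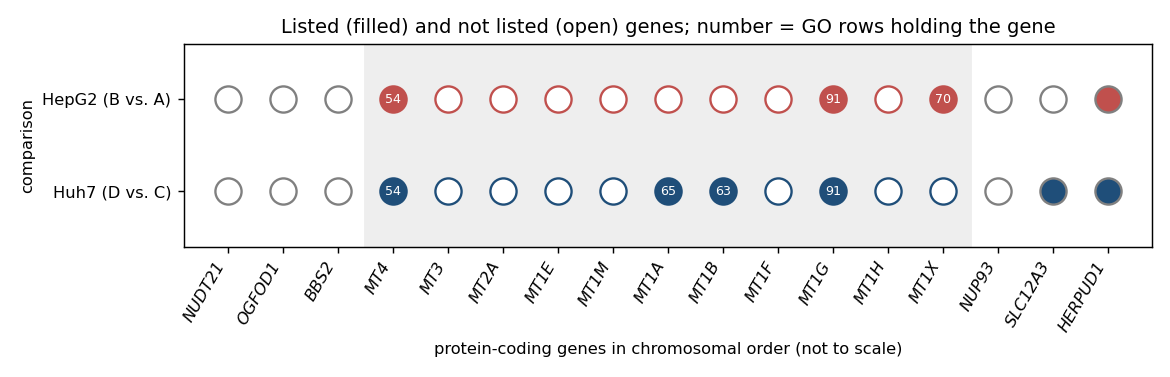
Protein-coding genes of the metallothionein cluster (grey field) and the 3 nearest coding genes on either side, in chromosomal order and not to scale, for HepG2 (upper row) and Huh7 (lower row). A filled circle is a listed gene and an open one a gene not listed, and the number in a circle counts the GO rows that hold the gene, from 54 for MT4 to 91 for MT1G.

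The members are close copies of each other, which matters for how reads are assigned to them. The coding sequences of MT1G, listed in both cell lines, MT1X, listed in HepG2 cells, and MT1B, listed in Huh7 cells, are shown without their stop codon, from GENCODE release 29, each 183 bases long. Capitals mark the bases that differ from the commonest base at that position among the 9 members of this length, which are all but MT3.
MT1G: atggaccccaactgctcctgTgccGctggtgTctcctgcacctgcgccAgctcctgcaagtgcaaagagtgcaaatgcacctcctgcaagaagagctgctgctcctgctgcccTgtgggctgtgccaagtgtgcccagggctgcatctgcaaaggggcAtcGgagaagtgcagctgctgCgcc
MT1X: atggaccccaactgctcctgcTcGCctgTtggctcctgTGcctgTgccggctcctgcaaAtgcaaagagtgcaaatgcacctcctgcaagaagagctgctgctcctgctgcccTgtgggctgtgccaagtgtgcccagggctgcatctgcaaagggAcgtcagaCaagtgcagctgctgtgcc
MT1B: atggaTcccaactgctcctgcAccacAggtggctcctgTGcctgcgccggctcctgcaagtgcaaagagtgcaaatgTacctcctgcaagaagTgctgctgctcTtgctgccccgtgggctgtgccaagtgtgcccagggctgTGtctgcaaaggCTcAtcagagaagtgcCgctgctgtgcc

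MT1B carried 14 such differences, MT1X 11 and MT1G 8. Among the 8 MT1 genes, the identity of coding sequences ranged from 88.5% to 94.5% with a median of 91.3%. Among the members listed in Huh7 cells, MT1A and MT1G shared 93.4% of positions, MT1A and MT1B 90.2%, and MT1B and MT1G 89.1%. MT1G and MT1X, listed in HepG2 cells, shared 91.3%. The closest relative of MT1G was the unlisted MT2A, at 95.1%, and the closest relative of MT1A was the unlisted MT1E, at 94.5%. MT3 was more distant, with an identity of 72.1% to 76.0% to the other members and a coding sequence of 204 bases. MT4 stood at 62.3% to 73.1%.

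**Figure D2:**
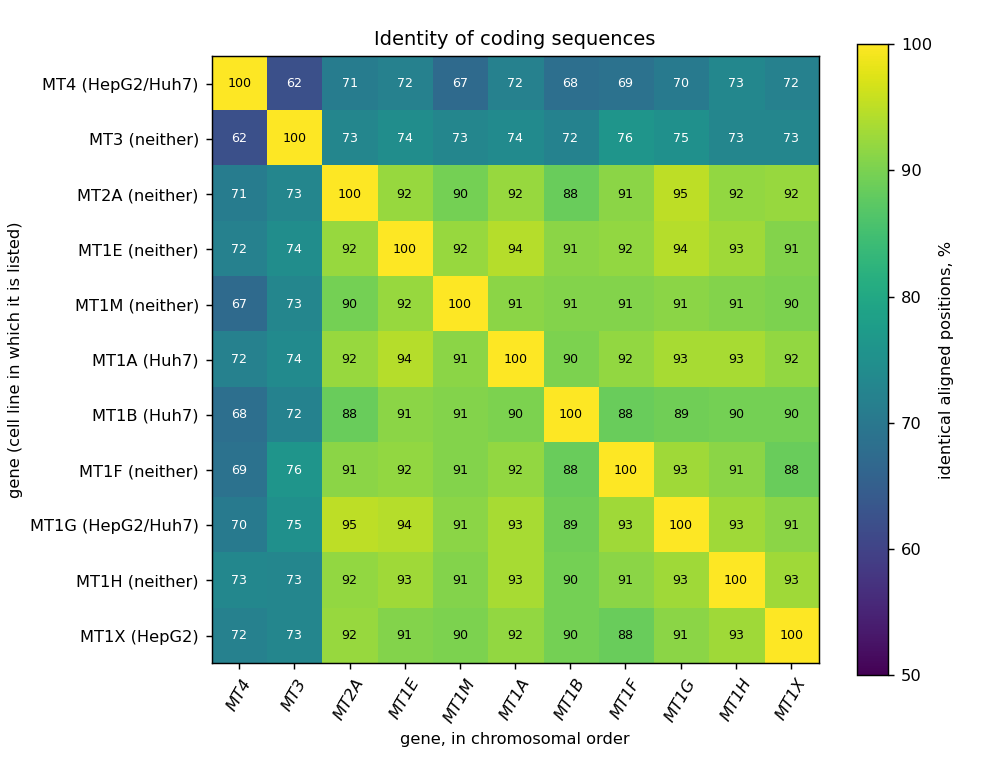
Identity of the coding sequences of the cluster, as the percentage of aligned positions with the same base, with genes in chromosomal order and the cell line in which each is listed given in parentheses. MT1 and MT2A genes form a block of 88.5% to 95.1%, from which MT3 and MT4 stand apart.

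The share of each gene's transcript sequence that occurs in no other annotated gene was then counted, since reads from a shared stretch can be assigned to the wrong copy. For stretches of 50 bases, 83.5% of those of MT1G were unique, 81.7% of those of MT1X, 94.2% of those of MT1A and 81.0% of those of MT1B. MT1G shared its stretches with 11 other genes, most of all with MT1H (54 stretches) and MT1X (51 stretches). For stretches of 100 bases, all of MT1G and MT1A were unique. MT1X remained at 88.7% and MT1B at 94.2%, in each case because of an overlapping noncoding gene on the same strand, AC026461.1 and AC026461.2. For stretches of 150 bases, MT1X stood at 91.4%, and MT1G, MT1A and MT1B at 100%. The unlisted members were between 84.2% (MT1H) and 100% (MT3) at 50 bases. The unlisted MT2A was at 97.0% and MT4, listed in both cell lines, at 100%. The length of the reads and the strand setting of the counting are not given in the sources used here, so the listing of MT1G, MT1X and MT1B carries this uncertainty. Its part in the listing was not tested.

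The members also have short transcripts. The longest coding transcript of a member ranged from 380 bases for MT1B to 829 bases for MT1M. Of the 920 protein-coding genes of this length range in the reference annotation, 17.9% were listed in HepG2 cells, below the 23.9% of all its protein-coding genes. In Huh7 cells the values were 16.5% and 21.9%. Whether each of these genes is in the GO background of the study is not known, and a gene outside it could not be listed. MT1A, with 396 bases, and MT1B, both listed in Huh7 cells alone, were the shortest of the 10. MT1M and MT2A, with 786 bases, were the longest and unlisted. The members listed in HepG2 cells lay between them, MT1X with 538 bases and MT1G with 628, and the unlisted MT3 had 579.

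GO rows were read next to see under which functions the members stood. In HepG2 cells, 95 of 14390 rows held at least 1 member, and 66 of them held both listed members. In Huh7 cells, 92 of 13760 rows held at least 1 member, and 63 held all 3. MT1G stood under 91 rows, the same 91 in both tables. MT1X stood under 70 rows, MT1A under 65 and MT1B under 63. All 63 rows of MT1B also held MT1A, and the 2 rows that held MT1A without MT1B were cytosol and protein binding.

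Some rows held a single member. MT1G, without any other listed member, stood under monocyte activation (4 listed of 10 background genes for HepG2 and 3 for Huh7), monocyte differentiation (13 and 14 of 35) and the cellular response to vascular endothelial growth factor (22 and 25 of 68). MT1X was the only listed member under the response to erythropoietin, the hormone of red cell formation, where 5 of 8 background genes were listed in HepG2 cells. In Huh7 cells 4 of these 8 genes were listed, and 0 of them was a metallothionein. All listed members stood under negative regulation of growth, which held 79 and 74 of 254 genes, and under perinuclear region of cytoplasm, which held 173 and 170 of 727 genes. These rows follow from the annotation of a gene once it is listed, and they are not separate measurements of it.

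Metal-response rows were those that named a metal, metals in general, an inorganic substance, an inorganic cation or detoxification and held at least 1 member. There were 22 such rows, and in each cell line all 22 held every listed member. The smallest was detoxification of copper ion, with 14 background genes. The HepG2 table had 3 listed genes there, MT1G, MT1X and MT4. The Huh7 table had 4, MT1A, MT1B, MT1G and MT4. Every gene listed under this row was therefore a metallothionein.

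The rows for response to zinc and zinc homeostasis held more listed genes in Huh7 cells. Response to zinc ion held 17 of 54 background genes in HepG2 cells, 31.5% (20.7% to 44.7%), and 24 in Huh7 cells, 44.4% (32.0% to 57.6%). The interval of Huh7 cells lies above the 19.7% of all genes, and that of HepG2 cells contains the 21.6% of all genes. Zinc ion homeostasis held 8 of 42 genes in HepG2 cells, 19.0% (9.98% to 33.3%), and 15 in Huh7 cells, 35.7% (23.0% to 50.8%). The intervals of the cell lines overlapped for both rows, as they did for all 22. When the listed members were left out, response to zinc ion stood at 28.8% and 41.2%, and zinc ion homeostasis at 15.0% and 30.8%. The gap between the cell lines thus went from 13.0 to 12.3 points and from 16.7 to 15.8 points. For cellular zinc ion homeostasis it went from 15.0 to 13.9 points. Cellular response to zinc ion, a row of 22 background genes, had a smaller gap of 4.5 points, which fell to 1.3 points. Besides the members, that row held 5 listed genes in each cell line. A wide gap was therefore not common to all zinc rows. Leaving out listed genes alone lowers every share, so the lower values are no result of their own. Zinc ion binding, a row of 921 genes, held 220 in HepG2 cells and 199 in Huh7 cells, the opposite order. As multiples of the share of all genes, these were nearly the same, 1.11 in HepG2 cells and 1.10 in Huh7 cells.

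Under zinc ion homeostasis, 7 genes were listed in both cell lines. Besides MT1G and MT4 they were SLC30A2 and SLC30A3, which carry zinc out of the cytosol, SLC39A12 and SLC39A13, which carry zinc into it, and S100A9, a zinc-binding protein of myeloid cells. MT1X was the only gene of the row listed in HepG2 cells alone. The 8 genes listed in Huh7 cells alone were MT1A, MT1B, SLC30A4, SLC39A7, SLC39A8, ATP7B, LCK and TMC8. Of these, ATP7B is the copper-exporting pump of hepatocytes that is defective in Wilson disease.

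The rows for response to copper held equal numbers of genes in the cell lines. Response to copper ion held 13 of 45 genes in each cell line, 28.9% (17.7% to 43.4%), of which 7 were the same. This was 1.34 times the share of all genes in HepG2 cells and 1.46 times that in Huh7 cells. Cellular response to copper ion held 7 of 29 genes in each, of which 4 were the same. With the listed members left out, these rows stood at 25.6% and 18.5% in HepG2 cells and at 23.8% and 15.4% in Huh7 cells. Cellular response to copper ion thus went from 24.1%, above the 21.6% and 19.7% of all genes, to below them in both cell lines. A fall is fixed in advance when only listed genes are left out. Response to cadmium ion held 16 of 69 genes in HepG2 cells, 23.2% (14.8% to 34.4%), and 21 in Huh7 cells, 30.4% (20.8% to 42.1%). The 11 genes listed under response to cadmium ion in both cell lines were CDK1, CYB5A, ENPP2, FOS, HMOX1, JUN, KIT, MT1G, MT4, PRNP and SORD. Of these, HMOX1 is the heme-degrading stress enzyme, and FOS and JUN are transcription factor genes.

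Among the broad rows, those for response and homeostasis stood further above the share of all genes than those for binding. Response to metal ion held 113 of 371 genes in HepG2 cells, 30.5% (26.0% to 35.3%), and 119 in Huh7 cells, 32.1% (27.5% to 37.0%). Metal ion homeostasis held 188 and 183 of 649 genes. Metal ion binding, the widest, held 1095 and 986 of 4511 genes, 24.3% and 21.9%, beside 23.9% and 21.9% of protein-coding genes. HepG2 cells had 18 of the 22 rows above the share of all background genes, 10 of them with the whole interval above it. Huh7 cells had 22 above it, 17 with the whole interval. Against the share of protein-coding genes, 15 rows were above in HepG2 cells, 7 with the whole interval, and 20 in Huh7 cells, 12 with the whole interval. Shares were higher in Huh7 cells in 10 rows, higher in HepG2 cells in 10 and equal in 2. These are raw shares, and more of all genes were listed in HepG2 cells (21.6%) than in Huh7 cells (19.7%). As a multiple of the share of all genes, rows were higher in Huh7 cells, with the following exceptions. Cellular response to inorganic substance (1.36 in HepG2 and 1.34 in Huh7 cells), zinc ion binding (1.11 and 1.10) and metal ion binding (1.12 and 1.11) were slightly higher in HepG2 cells. The rows overlap in their genes and are no independent observations. Each row was also chosen because it held a listed member, which by itself lifts the shares of small rows.

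**Figure D3:**
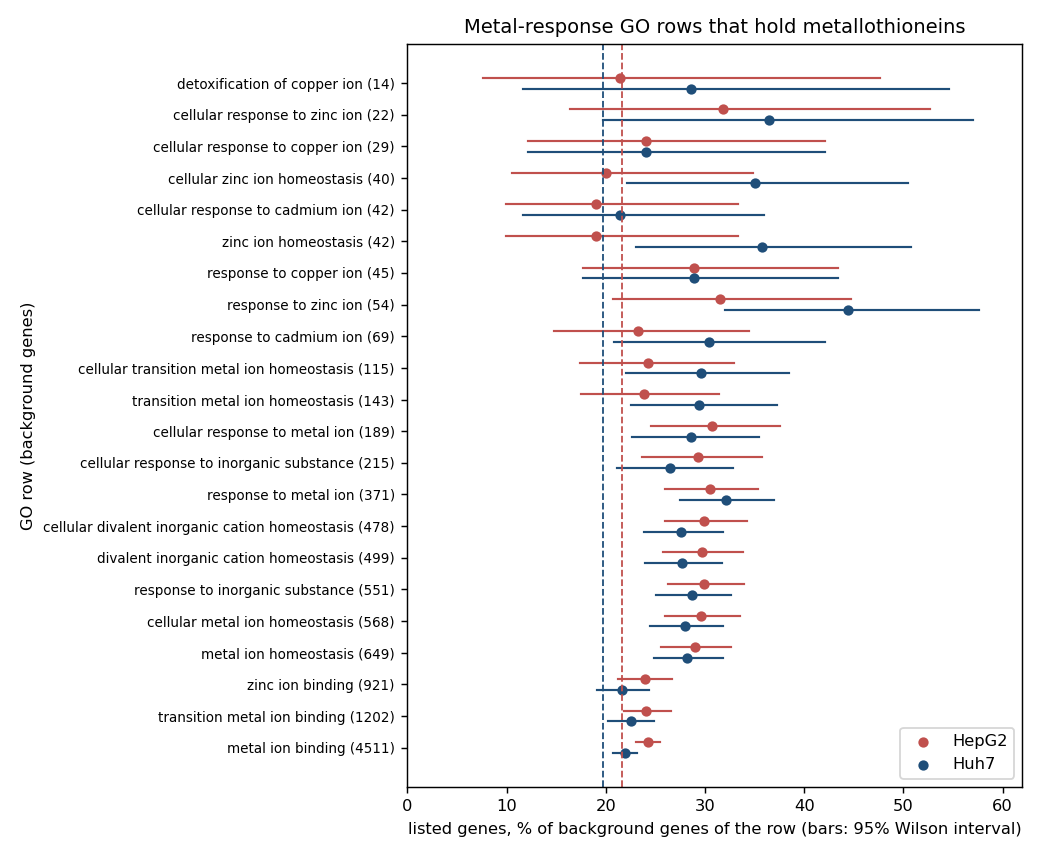
Listed genes as a percentage of the background genes of each of the 22 metal-response GO rows that hold metallothioneins, with 95% Wilson intervals, ordered from the smallest row (14 genes) to the widest (4511 genes). Dashed lines mark the listed share of all genes, 21.6% in HepG2 and 19.7% in Huh7, and the widest gap between the cell lines, 16.7 points, is in zinc ion homeostasis.

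KEGG pathways gave no further listing. Of 279 pathways in the HepG2 table and 280 in the Huh7 table, 0 held a member. Mineral absorption, the pathway of intestinal metal uptake, held 17 of 51 genes for HepG2 and 13 for Huh7. HMOX1, FTH1 and FTL were among them in both cell lines, and 0 metallothioneins in either. MT1G was listed under GO rows in both cell lines, so its absence here is no sign that it did not change. Which background genes the pathways held is not given, so whether metallothioneins could appear there is not known.

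The promoters of members in the RefSeq table are shown next, because MREs are the sites through which metals act on these genes. Entries were found for 4 of the 10 members, MT1B, MT1H, MT1X and MT2A. Members without an entry were MT1A, MT1E, MT1F, MT1G, MT1M and MT3. The 250 bases before the RefSeq start on the plus strand of GRCh38.p14 are given, with capitals for the letters TGCACNC or TGCGCNC (N is any base) of the MRE core on either strand. The windows are chr16:56682220-56682469 for MT1X, listed in HepG2 cells, chr16:56651636-56651885 for MT1B, listed in Huh7 cells, and chr16:56608334-56608583 for MT2A and chr16:56669564-56669813 for MT1H, which were listed in neither.
MT1X: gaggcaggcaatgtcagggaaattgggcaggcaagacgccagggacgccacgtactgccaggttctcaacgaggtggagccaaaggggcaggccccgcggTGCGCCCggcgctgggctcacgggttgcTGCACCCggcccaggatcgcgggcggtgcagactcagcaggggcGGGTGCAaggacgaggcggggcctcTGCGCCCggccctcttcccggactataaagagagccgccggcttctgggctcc
MT1B: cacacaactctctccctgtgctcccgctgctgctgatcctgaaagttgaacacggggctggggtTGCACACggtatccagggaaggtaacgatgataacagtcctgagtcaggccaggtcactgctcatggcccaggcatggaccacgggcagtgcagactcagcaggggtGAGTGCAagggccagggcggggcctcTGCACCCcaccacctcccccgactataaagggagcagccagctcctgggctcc
MT2A: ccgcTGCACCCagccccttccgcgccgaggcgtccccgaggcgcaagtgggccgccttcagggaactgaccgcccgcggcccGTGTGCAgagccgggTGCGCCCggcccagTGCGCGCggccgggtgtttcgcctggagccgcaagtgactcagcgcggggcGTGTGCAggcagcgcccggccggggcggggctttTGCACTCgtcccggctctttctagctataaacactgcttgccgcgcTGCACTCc
MT1H: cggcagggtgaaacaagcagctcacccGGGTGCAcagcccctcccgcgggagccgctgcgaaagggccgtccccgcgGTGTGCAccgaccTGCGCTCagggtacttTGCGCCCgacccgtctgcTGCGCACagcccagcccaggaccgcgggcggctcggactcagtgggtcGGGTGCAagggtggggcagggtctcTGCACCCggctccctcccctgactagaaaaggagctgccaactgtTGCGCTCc

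The MRE core letters occurred 4 times before MT1X, 3 times before MT1B, 7 times before MT2A and 8 times before MT1H, with no match overlapping another. Of 35116 promoters of this length in the table, 24.8% held the letters at least once, 1.58% at least 3 times, 0.370% at least 4 times and 0.0313% at least 7 times. The unlisted MT2A and MT1H thus had more matches in this window than the listed MT1X and MT1B. The promoter of MT4, listed in both cell lines, had 3 matches. The letters TGACNNNGC of the antioxidant response element (ARE), the site of the oxidative stress factor NRF2, occurred once on either strand before MT1X, MT1B and MT2A and not before MT1H. They occurred in 10.9% of all promoters, and none overlapped an MRE match. A match of letters is not a binding site that was measured here.

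**Figure D4:**
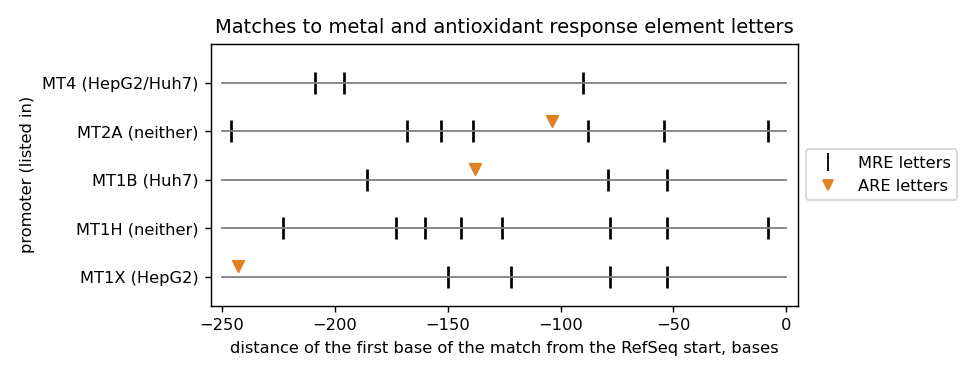
Positions of matches to MRE core letters (bars) and ARE letters (triangles) in the 250 bases before the RefSeq start of MT4 and of the 4 members with an entry, as the distance of the first base of each match from the start. MT1H and MT2A, listed in neither cell line, carry 8 and 7 MRE matches, and MT1X and MT1B carry 4 and 3.

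Other genes of metal handling were counted by lists of their function. MTF1, the metal-responsive factor, was listed in HepG2 cells and not in Huh7 cells. Of 10 SLC30A zinc exporters, 3 were listed after treatment of HepG2 cells and 4 after that of Huh7 cells, and SLC30A2, SLC30A3 and SLC30A10 were listed in both. SLC30A1, the plasma membrane zinc exporter that MTF1 is known to induce together with metallothioneins, was listed in neither. Of 14 SLC39A zinc importers, 3 were listed in HepG2 cells (SLC39A2, SLC39A12 and SLC39A13) and 4 in Huh7 cells (SLC39A7, SLC39A8, SLC39A12 and SLC39A13). SLC30A10 is counted here by its family, although it is best known for exporting manganese.

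Of 12 copper genes, HepG2 cells had 5 on their list and Huh7 cells 4. Those listed in both were SLC31A2, a copper transporter of intracellular vesicles, SCO2, a copper chaperone of cytochrome oxidase, and CP, the plasma ferroxidase ceruloplasmin. Only 8.12% of the 50-base stretches of SCO2 and 40.6% of those of SLC31A2 were unique, so these are uncertain. SLC31A1, the main copper importer, and SCO1 were listed in HepG2 cells alone, and ATP7B in Huh7 cells alone.

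Of 20 iron genes, HepG2 cells had 5 on their list and Huh7 cells 7. The ferritin subunits FTH1 and FTL, the ferrireductase STEAP3 and HMOX1 were listed in both. FTH1 has many pseudogenes, and 42.6% of its 50-base stretches were unique. HFE was listed in HepG2 cells alone, whereas HAMP, the iron hormone hepcidin, and HJV and TMPRSS6, which regulate it, were listed in Huh7 cells alone. Across the 57 genes of the zinc, copper and iron lists with MTF1, 17 (29.8%, 19.5% to 42.7%) were listed in HepG2 cells and 19 (33.3%, 22.5% to 46.3%) in Huh7 cells. Those listed in both were 12 (21.1%, 12.5% to 33.3%), against 10.3% of all genes. The interval of HepG2 cells contains the 21.6% of all genes, and that of Huh7 cells lies above 19.7%.

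**Figure D5:**
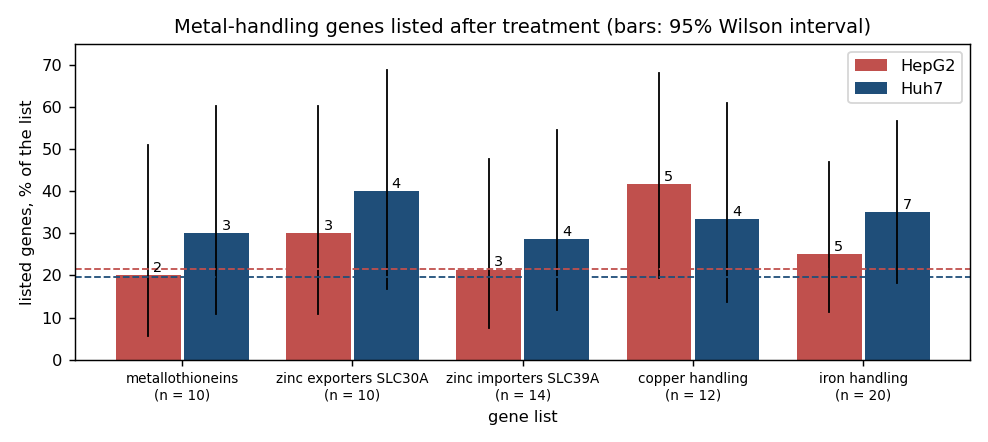
Listed genes as a percentage of each list of metal-handling genes in HepG2 and Huh7, with the number of listed genes over each bar and 95% Wilson intervals as black lines. Dashed lines mark the listed share of all genes, 21.6% and 19.7%, and the metallothioneins stand at 20.0% and 30.0%.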

How the data were processed

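RNA of 4 groups (1 library each) was sequenced. The submitters' processing notes name Bowtie2 2.2.8, HISAT2, StringTie 1.3.1 and Cuffdiff 2.1.1. The authors computed FPKM values, called mRNAs at an adjusted p-value under 0.05 and tested GO terms with GOseq and KEGG pathways with KOBAS. The genome build is not given in the sources used here, and the tables hold no reads, so no value here rests on library depth. The authors deposited, for each comparison, a GO table and a KEGG table with numbers of listed and background genes, gene identifiers and p-values of terms. The p-values are the study's own results and were not used. The numbers count genes, not reads.

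The listed genes were the union of identifiers over all GO rows (4783 in HepG2 and 4369 in Huh7 cells). Symbols were matched by Ensembl identifier, for 4755 and 4346 of them. All 10 members matched. Shares have 95% Wilson intervals, with no test. The members, the gene lists and the rule for metal-response rows were chosen with earlier results of these data known. The rule for names took all members, the listed genes of these lists and the metal-response rows with at least 2 members. Neighbouring genes, other genes of metal-response rows, GO rows with a single member, and KEGG Mineral absorption were named after their values were seen. The length, the overlap and the neighbours of genes came from GENCODE release 29. For coding sequences, the transcript with a consensus coding sequence was taken, and pairs were aligned globally with Biopython 1.88. Promoters came from RefSeq, GRCh38.p14. Some items are not reported here. Scripts ran in Python 3.11.15 and were tested on simulated tables.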

Additional observations from a re-analysis of the deposited data

How the results depend on the processing

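The counts of listed members (2 for HepG2, 3 for Huh7 and 1 shared) did not move when the KEGG tables were added, when biological process, molecular function or cellular component rows were read alone, and when older symbols were accepted. Adding KEGG could not move them, since 0 pathways held a member. Reading 1 kind of GO row alone could not either, since each listed member stood under rows of every kind. With MT4 and MT1HL1 added, 3 genes were listed for HepG2 and 4 for Huh7, and the shared count became 2 (MT1G and MT4). The listed share of all genes, 21.6% in HepG2 and 19.7% in Huh7 cells, was 23.9% and 21.9% over the protein-coding genes of the reference. It was 17.9% and 16.5% over protein-coding genes of similar transcript length, a setting chosen after seeing the data. The members' 20.0% in HepG2 cells was below 21.6% and 23.9% and above 17.9%. With the listed members left out, the metal-response rows above the share of all genes in both cell lines numbered 16 instead of 18, and 43 of 44 row shares stayed within the interval of the full row. The exception was detoxification of copper ion in Huh7 cells, which fell from 28.6% to 9.09%. Leaving out only listed genes lowers every share by construction, and a wide row cannot move far. The 43 of 44 is therefore no support for the row shares. With the members kept, 15 rows were above the share of protein-coding genes in both cell lines, a setting also chosen after seeing the data. No paired analysis was possible because no result comes from a test and each group has 1 library, so no library could be left out either.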
